A study of Mus musculus with 2 samples.

Results

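This report describes mmu-miR-21a-5p, mmu-miR-21a-3p, mmu-miR-22-3p and mmu-miR-22-5p, the 2 mature arms of the miR-21a hairpin and the 2 of the miR-22 hairpin, in exosomes of mouse mesenchymal stem cells from the bone marrow (BMSCs). They are 4 of the 1881 mouse miRNAs on the array and were found by name among its miRNA spots. The hairpins were chosen by measured values, since miR-21a-5p and miR-22-3p were already known to be among the brightest miRNAs of both arrays, so their brightness is given below as a description. Exosomes, the small vesicles that cells shed into their medium, were collected after 72 h of culture from BMSCs of C57BL/6 origin held in normoxia or at 0.2% oxygen. Both cultures were of purchased cells, and the labels name no genetic change in either. Exosomal RNA carrying the dye Cy3 was put on miRNA arrays of 1 colour, with 1 array per condition, so no test was run and every SD or SE below is over replicate spots of an array. Such errors cover differences between spots within an array. They do not cover labelling, hybridisation or scanning differences between the arrays, nor the spread between cultures. The arrays measured the RNA of a whole preparation, so fewer vesicles carrying a miRNA and less of it per vesicle cannot be told apart.

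A miRNA gene is transcribed into a long precursor, from which the nuclease Drosha cuts a hairpin and Dicer cuts a short duplex. Usually 1 strand of the duplex, the guide, is kept by an Argonaute protein and represses mRNAs that match its seed, bases 2 to 8, while the other strand, the passenger, is mostly degraded. miR-21a-5p is the guide of a hairpin long studied in cancer, with the tumour suppressor Pdcd4 among its known targets, and it is abundant in mesenchymal cells. miR-22-3p is the guide of its hairpin and is found in many tissues. miR-21a-3p and miR-22-5p are the passenger arms.

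The mature sequences are shown because the arms are told apart only by sequence, with the seed in capitals. They are from RefSeq, written 5′ to 3′, on the build GRCm38.p6.
mmu-miR-21a-5p: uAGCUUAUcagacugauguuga
mmu-miR-21a-3p: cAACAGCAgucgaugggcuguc
mmu-miR-22-3p: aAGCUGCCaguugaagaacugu
mmu-miR-22-5p: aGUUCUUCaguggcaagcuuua

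Each arm is 22 bases long, and no 2 of them share a seed. miR-21a-5p lies at chr11:86584120-86584141 and miR-21a-3p at chr11:86584082-86584103, both on the minus strand. Their hairpin is inside the annotated span of Vmp1, a protein-coding gene on the same strand whose product acts in autophagy. miR-22-5p lies at chr11:75463734-75463755 and miR-22-3p at chr11:75463772-75463793, both on the plus strand. That hairpin is inside the span of Mir22hg, its long non-coding host gene. In each hairpin 16 bases separate the arms.

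Sequences close to miR-21a-5p are shown next because they differ from it at few bases. The array also carries miR-21b and miR-21c, which are mature miRNAs of other loci.
mmu-miR-21b: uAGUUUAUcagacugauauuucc
mmu-miR-21c: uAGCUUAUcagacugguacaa

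miR-21c has the seed of miR-21a-5p and its first 15 bases, and differs from it by A16G, G18A, U19C, U20A and G21A and by being 1 base shorter, with positions counted from 1 at the 5′ end and the base of miR-21a-5p first. miR-21b differs by C4U, in the seed, and by G18A, G21U and A22C, and is 1 base longer. Neither was well above background on either array. Processed signal here is the background-subtracted linear intensity that the scanner software gives each spot. On the normoxia array it was 4.10 ± 4.52 and 3.90 ± 3.56 at the probes of miR-21b, and on the hypoxia array 2.27 ± 3.13 and 2.16 ± 2.08 (SD, n = 15 spots each). The probes of miR-21c gave −0.062 ± 1.83 and 0.48 ± 2.02 in normoxia (SD, n = 14 spots each). In hypoxia they gave −0.42 ± 2.65 (SD, n = 14 spots) and −1.01 ± 2.23 (SD, n = 13 spots). Signals in the range of miR-21a-5p were thus not seen at the probes of these relatives. Among mature mouse miRNAs in the sequence table used, miR-21c was the only one beyond the members with a member's seed.

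The arrays were similar in design and differed in noise. Of the miRNA spots, 9.96% were well above background in normoxia and 8.59% in hypoxia, and the median coefficient of variation between replicate spots, as the software gave it, was 9.68% and 15.8%. A probe was called detected when over 50% of its spots without an outlier flag were well above background. A miRNA needed at least 1 such probe, which gave 225 miRNAs in normoxia, 199 in hypoxia and 180 on both arrays. Of 5 mesenchymal miRNAs 4 were detected on each array, with miR-145a-5p below background on both, and of 5 epithelial miRNAs none was detected on either. Of 7 blood cell miRNAs 3 were detected in normoxia, where miR-451a, miR-144-3p and miR-223-3p summed to a signal of 727, and 1 in hypoxia, where miR-451a gave 26.5. The other 4 blood markers, miR-486a-5p, miR-142a-3p, miR-142a-5p and miR-150-5p, were not detected on either array. The liver miRNA miR-122-5p gave 78.5 in normoxia and was not detected in hypoxia. The blood cell and liver miRNAs thus moved with the condition, and their part in the values of the members was not tested. The mesenchymal miRNAs had a summed signal of 933 in normoxia and 934 in hypoxia, but single members moved in both directions. From normoxia to hypoxia miR-214-3p went from 112 to 226 and miR-143-3p from 94.1 to 99.5. Over the same comparison miR-199a-3p went from 682 to 573 and miR-199a-5p from 45.4 to 35.7.

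The guide arm miR-21a-5p was bright on both arrays, and before any normalization it was dimmer in hypoxia. Of its 2 probes the brighter had a processed signal of 17276 ± 1487 in normoxia (SD, n = 13 spots), with a lowest spot of 14547, a median of 17296 and a highest of 19843. In hypoxia that probe gave 14013 ± 1658 (SD, n = 14 spots), with a lowest spot of 10050, a median of 13805 and a highest of 15849. The 2 sets of spots overlapped, although the hypoxic median lay under the lowest normoxic spot.

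The second probe of miR-21a-5p was dimmer and differed the same way. It gave 2710 ± 336 in normoxia (SD, n = 15 spots), with spots from 2034 to 3427 and a median of 2755. It gave 2009 ± 295 in hypoxia (SD, n = 14 spots), with spots from 1442 to 2373 and a median of 2115. Spots at the same place on both arrays could be matched. At all 26 places without a flag on either array the hypoxic spot of miR-21a-5p was the dimmer one. Among the places left out for a flag, that with a normoxic spot of 8405 was brighter in hypoxia, at 13824, and the others were dimmer. Without normalization the log2 difference, hypoxia minus normoxia, was −0.30 ± 0.057 for the brighter and −0.43 ± 0.073 for the dimmer probe (SE over spots). Their mean was −0.37 ± 0.046 (SE over spots).

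That difference was close to that of the miRNAs as a whole. Without normalization 117 of the 180 miRNAs detected on both arrays were lower in hypoxia, with a median log2 difference of −0.27, and of the 20 brightest 18 were lower, with a median of −0.36. Relative to the median over the 180, miR-21a-5p stood at −0.098 on the log2 scale, and 17 of the 180 miRNAs lay nearer to the median. Neither probe changed its place among the detected probes: the brighter ranked 1 of 387 in normoxia and 1 of 339 in hypoxia, and the dimmer ranked 16 on both. Quantile normalization, the main scaling here, gives equal values to equal ranks, so both probes had a normalized log2 difference of 0 by construction.

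Before any normalization the guide arm miR-22-3p differed less than miR-21a-5p between the arrays. Its brighter probe gave 10180 ± 666 in normoxia (SD, n = 15 spots), with a lowest spot of 8584, a median of 10135 and a highest of 11117. In hypoxia it gave 9564 ± 1185 (SD, n = 14 spots), with a lowest spot of 7492, a median of 10049 and a highest of 10990. The spots of the 2 arrays overlapped over most of their range, and the 2 medians were nearly the same.

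The dimmer probe of miR-22-3p gave 2150 ± 185 in normoxia (SD, n = 14 spots), with spots from 1843 to 2397 and a median of 2198. In hypoxia it gave 1953 ± 378 (SD, n = 15 spots), with spots from 1008 to 2388 and a median of 1955. The hypoxic spots reached further down and not further up. At 28 matched places the hypoxic spot was dimmer 21 times and brighter 7 times. Without normalization the log2 difference was −0.090 ± 0.054 for the brighter and −0.14 ± 0.079 for the dimmer probe (SE over spots), each less than 2 SE from 0. The mean of the 2 probes was −0.11 ± 0.048 (SE over spots), while the median over the 180 miRNAs was −0.27. The SE is over spots, so a distance from 0 in SE is no test of the condition.

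Relative to the median over the 180 miRNAs, miR-22-3p was higher by 0.15 on the log2 scale under every scaling that applies 1 factor per array. That was further from the median than miR-21a-5p at −0.098, and 27 of the 180 miRNAs lay nearer to it. Its brighter probe ranked 3 on both arrays, and its dimmer probe ranked 21 in normoxia and 19 in hypoxia. The brighter probe therefore differed by 0 and the dimmer by 0.26 once quantile-normalized. The resulting log2 difference of 0.13 ± 0.048 (SE over spots) was 0.036 below the median over the 180 miRNAs under that scaling, so its side of the median depended on the scaling.

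**Figure D1:**
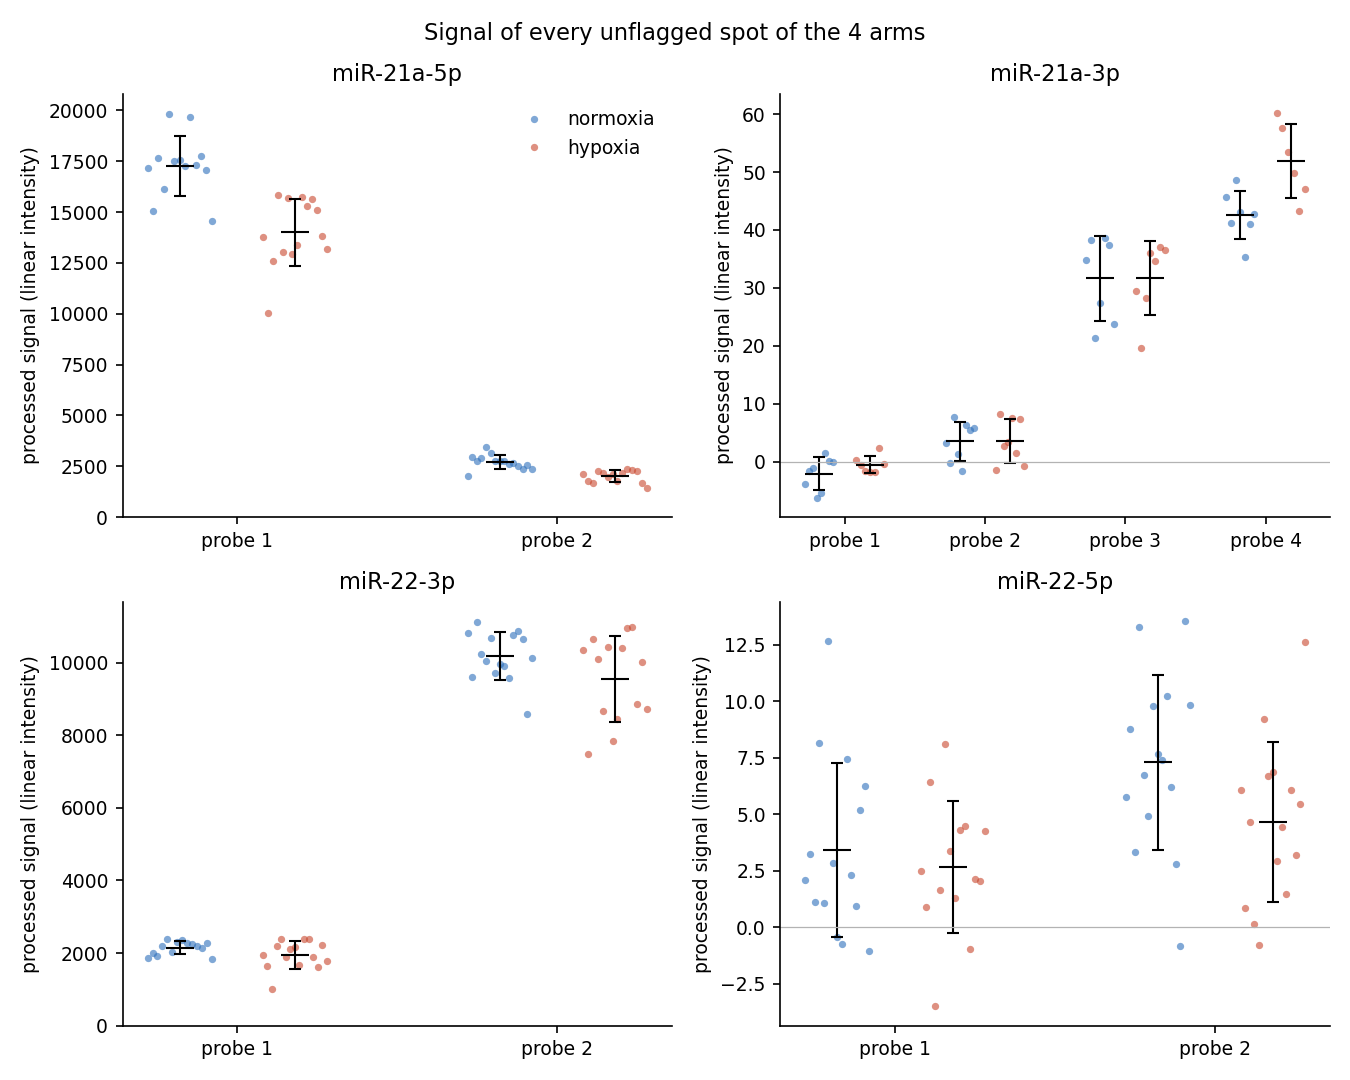
Processed signal (linear intensity) of every spot without an outlier flag for each probe of the 4 arms, with normoxia in blue and hypoxia in red. Horizontal bars are means and error bars the SD over spots. Probe 1 of miR-21a-5p lies lower in hypoxia, at 14013 against 17276 without normalization. The spots of the 2 arrays overlap at that probe and at both miR-22-3p probes. Of the 4 miR-21a-3p probes 2 stand clear of 0, and no spot of miR-22-5p was well above background.

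The passenger arm miR-21a-3p was dim wherever it was detected. It has 4 probes, of which 2 were well above background at all their spots and 2 at none, on both arrays. Its brightest probe gave 42.5 ± 4.12 in normoxia (SD, n = 7 spots), with a lowest spot of 35.4, a median of 42.7 and a highest of 48.6. In hypoxia it gave 51.9 ± 6.43 (SD, n = 6 spots), with a lowest spot of 43.2, a median of 51.7 and a highest of 60.2. The spots overlapped between 43.2 and 48.6, and all 6 matched places without a flag were brighter in hypoxia. The place left out for a flagged hypoxic spot was dimmer in hypoxia, at 19.2 against 41.1.

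The next probe of miR-21a-3p showed no such difference. On the normoxia array it gave 31.7 ± 7.31, with spots from 21.4 to 38.7, and on the hypoxia array 31.7 ± 6.34, with spots from 19.7 to 37.1 (SD, n = 7 spots each). At its 7 matched places the hypoxic spot was brighter 3 times and dimmer 4 times. The other 2 probes gave −2.01 ± 2.79 and 3.53 ± 3.36 in normoxia (SD, n = 8 spots each), which is background. In hypoxia they gave −0.46 ± 1.48 (SD, n = 7 spots) and 3.62 ± 3.78 (SD, n = 8 spots). For scale, the lowest detected probe signal on the arrays was 14.5 in normoxia and 13.5 in hypoxia.

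Without normalization the log2 difference of miR-21a-3p was 0.29 ± 0.090 for its brightest probe and 0.00096 ± 0.17 for the next (SE over spots). The mean, 0.14 ± 0.095 (SE over spots), was less than 2 SE from 0, while the median over the 180 miRNAs was −0.27. After quantile normalization the 2 probes gave 0.81 and 0.57 and their mean was 0.69 ± 0.095 (SE over spots), or 1.62-fold. Relative to the median over the 180 miRNAs the arm was higher by 0.41 with 1 factor per array and by 0.53 with quantile normalization. With 1 factor per array, 72 of the 180 miRNAs lay nearer to the median.

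None of the 30 spots of the passenger arm miR-22-5p was well above background, on either array. Its 2 probes gave 3.41 ± 3.85 and 7.30 ± 3.87 in normoxia (SD, n = 15 spots each). In hypoxia they gave 2.65 ± 2.92 (SD, n = 14 spots) and 4.66 ± 3.55 (SD, n = 15 spots). Its highest single spot was 13.5 in normoxia and 12.6 in hypoxia, both under the lowest detected probe signal of their array. No fold is given for it, and its level was not measurable here.

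Of the 3 arms detected on both arrays, none was at least 2-fold higher and none at least 2-fold lower in hypoxia. After quantile normalization 18.3% of the 180 miRNAs lay 2-fold or more above their normoxic value and 10.0% lay 2-fold or more below it. Under each of the 6 scalings miR-21a-5p had the lowest difference, then miR-22-3p, then miR-21a-3p. A scaling with 1 factor per array cannot change that order, so only quantile normalization could have done so. For the guide arms the direction of the difference depended on the scaling. miR-21a-5p lay between −0.37 without normalization and 0.56 when the 75th percentile of all probes was made equal. miR-22-3p lay between −0.11 and 0.81 under the same settings. miR-21a-3p stayed above 0, from 0.14 to 1.07, and passed 2-fold only with the 75th percentile of all probes. The median over the 180 miRNAs moved with the scaling too, from −0.27 without normalization and −0.14 with the hybridization spike-ins to 0.17 with quantile normalization, 0.21 with the labelling spike-ins and 0.66 with the 75th percentile of all probes. The 75th percentile of the detected probes left it at 0.050.

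**Figure D2:**
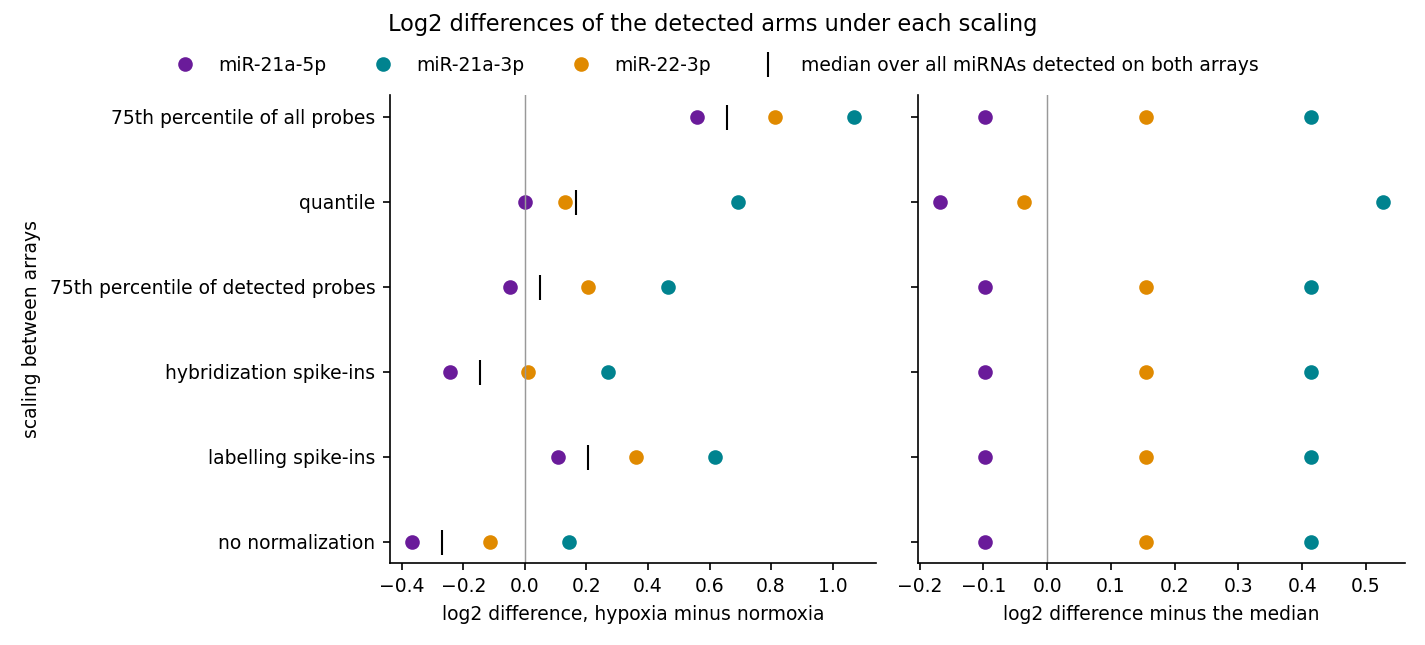
Log2 difference, hypoxia minus normoxia, of the 3 detected arms under 6 scalings between the arrays (left) and the same minus the median over the 180 miRNAs detected on both arrays (right). Points are arms and vertical ticks that median. The left panel shows the whole set sliding across 0, while on the right the 5 scalings with 1 factor per array give the same −0.098, 0.15 and 0.41, and quantile normalization gives −0.17, −0.036 and 0.53.

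The share of the detected signal taken by each arm scales each array by its own detected total, and no other scaling was applied. It is the processed signal summed over the detected probes of a miRNA, as a percent of the same sum over all detected miRNAs, and it is a share of signal and not of molecules, since probes bind with different strength. That total was 188277 in normoxia and 151878 in hypoxia. miR-21a-5p took 10.6% ± 0.81 in normoxia and 10.5% ± 1.11 in hypoxia (SD over spots), a difference well inside the spot error. Its rank by summed signal was 1 in normoxia and 2 in hypoxia, where miR-130a-3p, another bright guide arm, took 11.1%.

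miR-22-3p took 6.55% ± 0.37 in normoxia and 7.58% ± 0.82 in hypoxia (SD over spots), with rank 4 and rank 3. The difference of 1.03 percentage points was larger than either SD. The summed signal of miR-22-3p was 12331 in normoxia and 11516 in hypoxia, so its share rose against a lower total. miR-21a-3p took 0.0394% ± 0.0045 and 0.0551% ± 0.0059 (SD over spots), a ratio of 1.40. Those shares depended on the signal used, and were 0.0186% and 0.0258% with the software's summed signal and 0.0931% and 0.120% with normexp background correction, higher in hypoxia under both. It ranked 136 of 225 in normoxia and 121 of 199 in hypoxia, so it stood 60.4% and 60.8% of the way down the 2 lists. The 3 detected arms together took 17.2% of the detected signal in normoxia and 18.2% in hypoxia.

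The miRNAs most like the guide arms on the 2 arrays were found by the distance between their quantile-normalized log2 signals. The nearest to miR-21a-5p were miR-130a-3p at a distance of 0.58, miR-22-3p at 0.67 and miR-92a-3p at 0.73. The nearest to miR-22-3p were miR-92a-3p at 0.32, miR-21a-5p at 0.67 and miR-24-3p at 0.79. This likeness rests on 2 arrays and mostly ranks miRNAs by brightness. The log2 differences of these neighbours were 0.11 for miR-130a-3p, −0.32 for miR-92a-3p and −0.24 for miR-24-3p after quantile normalization.

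**Figure D3:**
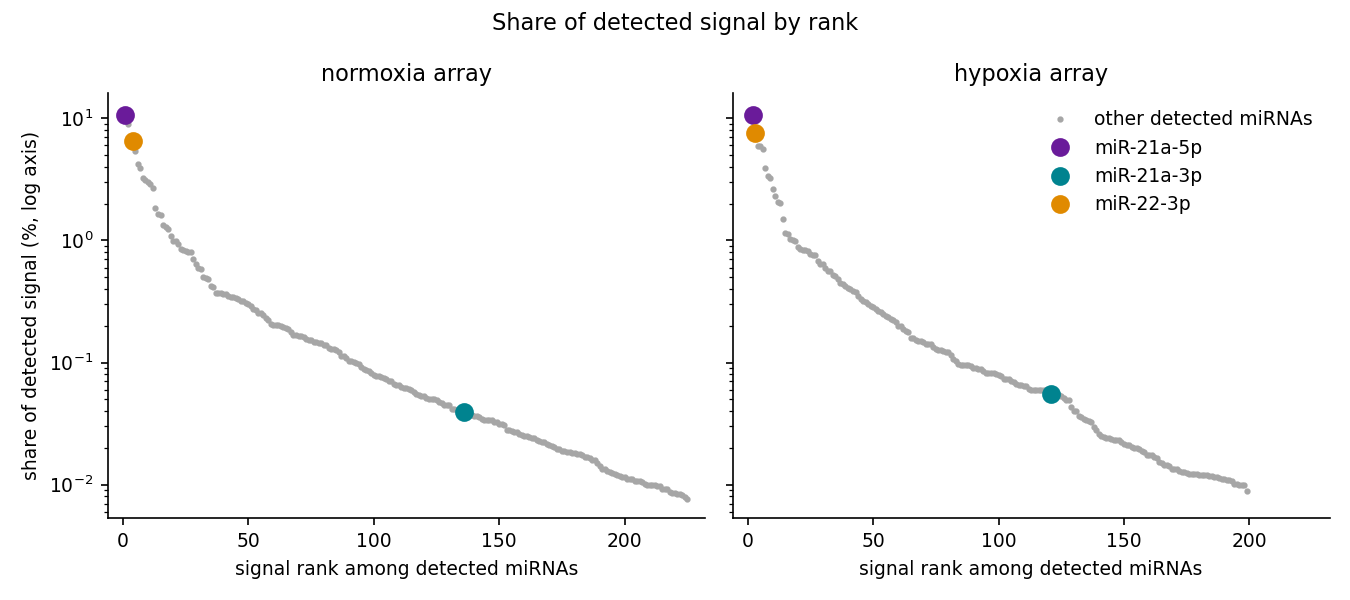
Share of the detected signal (percent, log axis) against signal rank for every miRNA detected on the normoxia array (left, 225 miRNAs) and on the hypoxia array (right, 199 miRNAs). Large points mark the 3 detected arms. The guide arms miR-21a-5p and miR-22-3p sit at the top of both curves, at 10.6% and 6.55% in normoxia, and the passenger arm miR-21a-3p sits beyond the middle of each list at 0.0394% and 0.0551%.

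The balance between the arms of a hairpin was then set against itself on the other array. Within an array the ratio of 2 arms depends on how strongly their probes bind. That dependence and any single scaling factor cancel when the same ratio is compared between arrays, so no normalization was used. A difference between the arrays that varies with signal strength does not cancel. For miR-21a the signal ratio of 5p over 3p was 186 in normoxia and 131 in hypoxia. The arm ratio change was −0.51 ± 0.11 on the log2 scale (SE over spots), a shift of 1.43-fold towards the 3p arm. It was made up of a log2 difference of −0.37 in the 5p arm and one of 0.14 in the 3p arm. With quantile normalization, which can scale bright and dim signals differently, the arm ratio change was −0.69.

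The size of that shift depended on the probes. With the brightest probe of miR-21a-3p it was −0.59 ± 0.11 and −0.72 ± 0.12 for the brighter and the dimmer probe of miR-21a-5p (SE over spots). With the other detected probe of miR-21a-3p it was −0.30 ± 0.18 and −0.43 ± 0.18 (SE over spots), the first less than 2 SE from 0. All 4 probe pairs had the same sign, but they share probes and are not independent. For miR-22 no arm ratio change can be given, since its 5p arm was under the background limit on both arrays.

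How far other hairpins shifted gives the scale for miR-21a. Of 723 hairpins with both arms on the array, 14 had both arms detected in normoxia and 12 in hypoxia, while 133 and 119, with miR-22 among them, had 1 arm detected. In 10 hairpins, miR-21a included, both arms were detected on both arrays, and 40.0% of them shifted at least 2-fold in either direction. miR-21a did not, and its shift was the third smallest in size, against a median size of 0.88. The direction was shared by 7 of the 10 hairpins, in which the brighter arm lost ground to the dimmer one. The brighter arm is the one whose brightest probe had the higher signal summed over both arrays.

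In the order of arm ratio change miR-21a stood between miR-652 at −0.63 ± 0.19 and miR-17, of the miR-17-92 cluster, at −0.27 ± 0.11 (SE over spots). The intervals of 1 SE around miR-652 and miR-21a overlapped, while those of miR-17 and miR-21a nearly met. The ends of the order were miR-34c, of a family that p53 induces, at −1.78 ± 0.093 and miR-324 at 1.35 ± 0.18 (SE over spots). The shift of miR-21a was moderate and was larger than its spot error. Whether it would repeat in other cultures was not measured.

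**Figure D4:**
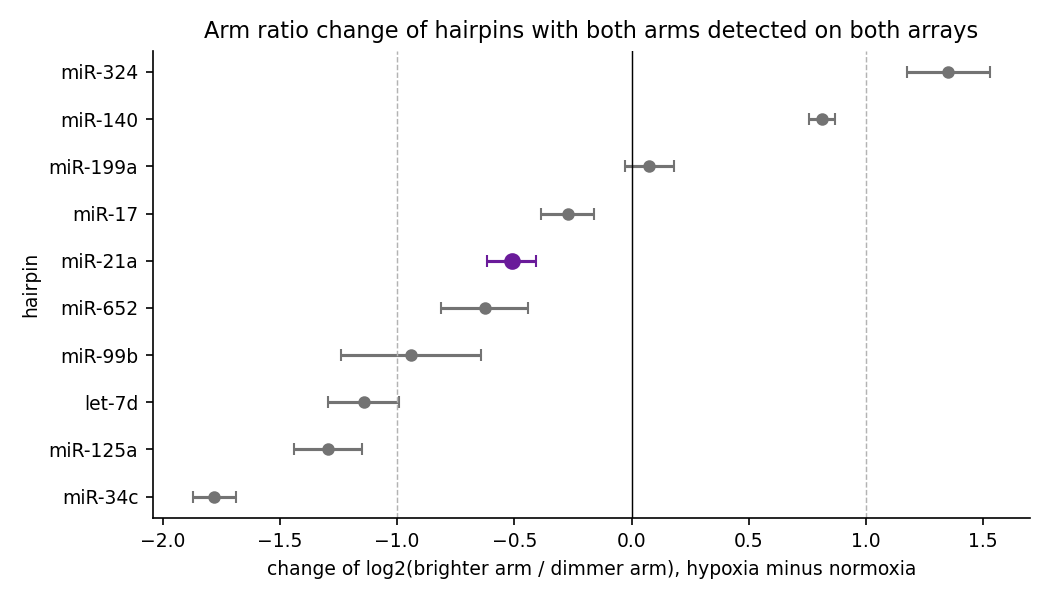
Arm ratio change, the log2 ratio of the brighter over the dimmer arm in hypoxia minus that in normoxia, for the 10 hairpins with both arms detected on both arrays. Points are values without normalization, error bars the SE over spots, and dashed lines mark 2-fold. miR-21a (purple) lies at −0.51, inside the 2-fold lines, between miR-652 and miR-17, with miR-34c at −1.78 and miR-324 at 1.35 at the ends.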

How the data were processed

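RNA from exosomes of normoxic and hypoxic BMSCs was measured on 2 arrays, which lay on 1 slide and in 1 scan. Place on the slide and condition cannot be told apart. The study's methods name a kit that labels miRNA, whereas the sample labels describe total RNA copied by reverse transcription, and which was used could not be settled here. The authors' scanner software, Feature Extraction 11.5.1.1 per the file headers, subtracted background and a spatial trend and set flags of 0 or 1 per spot. These flags are deposited columns that serve here as other values per spot. The deposited intensity values are linear and carry no normalization between arrays. The value table of the series equals them, with a largest difference of 0. The study's methods name GeneSpring GX for normalization, and its text speaks of quantile normalization.

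Here spots with an outlier flag were left out (2.96% in normoxia, 3.45% in hypoxia), the 4415 probe means were quantile-normalized, and log2 differences were averaged over the probes detected on both arrays. Shares and arm ratio changes used the signal without normalization. Errors of log2 differences come from the spot SD of each probe. The 2-fold threshold is from the study's text. The array files hold no mean pixel signal, so normexp (offset 50, limma 3.58.1, R 4.3.3) used the median pixel signal. All else was computed in Python 3.11.15 and tested on simulated data. Names matched through the RefSeq table of GRCm38.p6, while the array design is on mm9, so coordinates belong to the sequences only. The members and lists were chosen with earlier results of these data known. Named miRNAs are the members, miRNAs with a member's seed or a related name, the 3 nearest to each guide arm, the marker lists, and the neighbours and ends in the order of arm ratio change. With 1 array per condition the number of arrays limits precision and no p-value is given.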

Additional observations from a re-analysis of the deposited data

How the results depend on the processing

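No paired analysis was possible because there is 1 array of each condition, and no replicate could be left out. The value table equals the scanner signal and is no independent check. The arm ratio change of miR-21a lay between −0.69 and −0.39 under the 7 other settings run on it, each nearer to the reported −0.51 than its spot SD of 0.43. That SD is nearly as large as the change and the settings reuse the same arrays, so this is a loose limit. The filter for probes with all spots well above background, among these settings, kept the same miR-21a probes and could not change the value. The cause of the moves below was not tested unless named.

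With the 75th percentile of all probes made equal, the log2 difference was 0.56 for miR-21a-5p, 1.07 for miR-21a-3p and 0.81 for miR-22-3p, with 58 miRNAs at least 2-fold higher and 10 lower, against 33 and 18 in the report's scaling. Without normalization miR-21a-5p was at −0.37 and miR-21a-3p at 0.14, with 20 higher and 36 lower. The hybridization spike-ins put miR-21a-3p at 0.27 and gave 30 lower. Normexp, whose offset pulls dim signals together, put miR-21a-3p at 0.24 and gave 11 higher, 11 lower and 0 of 10 hairpins with a 2-fold arm ratio change. It gave shares of 9.47% and 9.22% for miR-21a-5p and 5.87% and 6.64% for miR-22-3p, in normoxia and hypoxia. The brightest probe alone gave 12.5% and 12.4%, and 7.36% and 8.46%. Without a filter, dim probes set to the lowest detected signal enter the total, which gave 8.11% and 7.74%, and 5.00% and 5.56%, and 39 of 723 hairpins shifted 2-fold. A filter that kept only probes with all spots well above background tested 144 miRNAs, of which 9 were lower.

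Signal over background limits miR-21a-3p, which rests on 2 dim probes, and leaves miR-22-5p without a level. The rank of miR-21a-3p was 136 and 121, and 181 in normoxia and 139 in hypoxia with the software's summed signal.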

Other observations

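A few member spots carried an outlier flag and were left out above. For the brightest probe of miR-21a-3p, 1 of 7 hypoxic spots was flagged, with a signal of 19.2 against 43.2 to 60.2 for the other 6, and the mean with it was 47.2 in place of 51.9. For the brighter probe of miR-21a-5p, 2 of 15 normoxic spots were flagged, at 8405 and 20935, and 1 hypoxic spot, at 8232, and the means over all spots were 16929 and 13627.5.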
